A study of Mus musculus with 8 samples.

Results

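The core circadian clock loop is described here as 10 genes, chosen by name and not by any measured value: the activators Arntl (Bmal1 in newer annotations), Clock and Npas2, the repressors Per1, Per2, Per3, Cry1 and Cry2, and the nuclear receptors Nr1d1 and Nr1d2. All 10 were found among the 56953 gene identifiers of the deposited counts. RNA was sequenced from 8 whole livers of adult male mice, 4 HSC-PCK1-KO and 4 control (WT genotype), and every mouse of both groups had eaten CDHFD, a diet without choline and rich in fat that leaves the liver fatty, inflamed and scarred, for 8 weeks. HSC-PCK1-KO livers lacked Pck1, the cytosolic phosphoenolpyruvate carboxykinase, in hepatic stellate cells, which store vitamin A and lay down scar tissue. The sources used here do not give the promoter that drove the deletion, the hour at which livers were taken or the feeding state. The series' design text calls the 4 samples of each group biological replicates.

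In the clock loop, the proteins of Arntl and Clock pair and bind E-box elements in DNA, switching on the Per, Cry and Nr1d genes. PER and CRY proteins return to the nucleus and block that pair. The REV-ERB proteins encoded by Nr1d1 and Nr1d2 compete with ROR activators at RORE elements, which lowers transcription of Arntl, Npas2 and, through an element within the gene, Cry1. In mouse liver the RNAs of Nr1d1 and the Per genes therefore run through the day ahead of and largely opposed to the RNA of Arntl, and feeding, glucocorticoids, cyclic AMP and temperature can all reset the loop, mainly through Per1 and Per2. Because the RNA came from whole liver, which is mostly hepatocytes, fewer cells of a type and less RNA per cell cannot be told apart in any value below.

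Promoter sequences are shown for some of the members, in windows that held a match to the elements searched. Windows of Clock, Cry2 and Nr1d2 also held a match and are not shown. Of the 10 members, 9 matched RefSeq's promoter windows of build GRCm38.p6, each 250 bases before to 50 bases after an annotated start, with 13 windows in all. Per2 was not matched. Each window is given 5′ to 3′ on the gene's own strand, and capitals mark every match, on either strand, to an E-box (CACGTG), a variant E-box (CACGTT), a RORE core (AGGTCA or GGGTCA), a D-box (TTANGTAA, where DBP, TEF, HLF and NFIL3 bind) or a cyclic AMP response element (TGACGTCA). The E-box and the cyclic AMP response element read the same on both strands, and the searched motifs did not overlap each other in these windows. The windows are Per3 at chr4:151044616-151044915 (minus strand), the upstream of the 2 Per1 windows at chr11:69098699-69098998 (plus strand), Cry1 at chr10:85185005-85185304 (minus strand), Nr1d1 at chr11:98775328-98775627 (minus strand) and the downstream of the 2 Arntl windows at chr7:113207261-113207560 (plus strand).
Per3: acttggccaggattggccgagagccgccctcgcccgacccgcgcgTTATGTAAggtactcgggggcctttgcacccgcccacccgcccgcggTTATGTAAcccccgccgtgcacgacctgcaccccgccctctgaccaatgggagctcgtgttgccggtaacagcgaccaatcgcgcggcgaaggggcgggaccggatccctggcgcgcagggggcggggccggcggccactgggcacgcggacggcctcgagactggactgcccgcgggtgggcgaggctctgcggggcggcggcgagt
Per1: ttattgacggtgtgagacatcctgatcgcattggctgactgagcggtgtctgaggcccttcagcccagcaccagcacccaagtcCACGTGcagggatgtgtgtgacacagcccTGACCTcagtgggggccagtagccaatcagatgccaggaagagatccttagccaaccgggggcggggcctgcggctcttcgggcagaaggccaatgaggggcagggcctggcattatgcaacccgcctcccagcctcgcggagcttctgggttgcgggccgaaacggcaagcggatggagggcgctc
Cry1: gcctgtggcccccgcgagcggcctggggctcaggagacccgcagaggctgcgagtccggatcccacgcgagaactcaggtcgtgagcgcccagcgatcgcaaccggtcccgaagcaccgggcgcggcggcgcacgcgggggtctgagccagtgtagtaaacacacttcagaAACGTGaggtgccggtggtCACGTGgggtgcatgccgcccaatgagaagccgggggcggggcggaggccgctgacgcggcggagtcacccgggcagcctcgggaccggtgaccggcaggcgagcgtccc
Nr1d1: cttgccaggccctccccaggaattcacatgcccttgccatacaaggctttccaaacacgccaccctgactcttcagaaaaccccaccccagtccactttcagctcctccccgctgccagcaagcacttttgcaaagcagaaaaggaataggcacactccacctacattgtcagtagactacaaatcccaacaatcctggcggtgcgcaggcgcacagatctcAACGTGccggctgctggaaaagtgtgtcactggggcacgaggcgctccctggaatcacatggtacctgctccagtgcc
Arntl: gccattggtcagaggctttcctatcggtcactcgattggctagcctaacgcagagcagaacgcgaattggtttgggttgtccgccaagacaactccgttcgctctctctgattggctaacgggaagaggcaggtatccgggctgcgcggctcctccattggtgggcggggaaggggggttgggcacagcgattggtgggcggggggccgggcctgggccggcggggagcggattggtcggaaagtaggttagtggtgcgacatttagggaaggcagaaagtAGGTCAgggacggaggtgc
The Per3 window held a pair of identical D-boxes, TTATGTAA, starting at bases 46 and 93. No other of the 9 matched members held a match to TTANGTAA. Sites that differ from these letters were not counted, such as ttatgcaa in the Per1 window shown. The D-box was in 2.32% of all 32851 promoter windows of the table. An E-box was found in Per1 and Cry1, and in 7.15% of all windows. The variant E-box was found in Cry1, Cry2 and Nr1d1, and in 4.68% of all windows. The RORE core AGGTCA was found in Arntl, Clock, Per1 and Nr1d2, and in 16.3% of all windows, and that of Arntl began at base 282, past the start of transcription. GGGTCA and the cyclic AMP response element were in no window of these members, and in 13.7% and 1.79% of all windows. A member was counted when any of its windows held the motif, while the shares are per window. Clock had 3 windows, and Arntl and Per1 had 2 each. The Per1 and Arntl windows not shown held no match, nor did the window of Npas2. A match describes letters only.

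Levels are first set out per kilobase, as counts scaled to library size (CPM) divided by the merged exon length of each gene in GENCODE M21, averaged over the 8 libraries. Nr1d1 was the highest of the loop at 40.5 ± 5.62 CPM per kb (SD, n = 8). Nr1d2 followed at 13.0 ± 1.16 and Cry2 at 4.66 ± 0.68 CPM per kb, and each of these stood above the next gene in all 8 libraries. Per2 (3.19 ± 0.86), Clock (2.98 ± 0.23), Cry1 (2.51 ± 0.56) and Per1 (2.42 ± 1.03) formed a group whose neighbours kept their order in only 5 or 6 of the 8 libraries. Per1 was above Arntl in 7 of 8. Arntl (1.27 ± 0.33) and Per3 (1.24 ± 0.28) could not be ordered, with 4 libraries each way, and both lay above Npas2 (0.382 ± 0.13), the lowest member, which Per3 exceeded in all 8. Long annotated ends, as in Clock with 13727 merged exon bases, lower a value per kilobase.

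The 8 libraries held 44695439 to 49477255 counts, and all 10 members passed the filter on low counts. Raw counts ran from 41 to 139 reads for Npas2 and from 215 to 7517 reads for the other members, so counting error is largest for Npas2. Pck1, the targeted gene, is abundant in hepatocytes and a deletion limited to stellate cells cannot be read from its whole-liver level. It had 339, 795, 593 and 948 CPM in HSC-PCK1-KO livers, against 1002, 2012, 551 and 1028 CPM in control livers. Summed hepatocyte markers, 7 of 7 of them tested, ran from 78824 to 96594 CPM in HSC-PCK1-KO livers and from 80080 to 101990 CPM in control livers. Stellate cell markers, 7 of 7 tested, summed to 126.4 to 163.6 CPM in HSC-PCK1-KO livers and to 140.5 to 199.4 CPM in control livers, and the sums of macrophage, endothelial, cholangiocyte, mesothelial, B cell and T cell markers likewise overlapped between groups. A sum follows its most abundant genes. By DESeq2, an alternative test, Upk3b of the mesothelial list was lower in HSC-PCK1-KO livers (log2 fold change -1.79, adjusted p = 0.0097). Upk3b did not pass the main edgeR test.

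Between genotypes, no member passed the test. By estimate the 3 Per genes stood lower in HSC-PCK1-KO livers, at log2 fold changes of -0.71 to -0.48, and the activator Npas2 stood higher, at 0.51. The other 6 members, Arntl, Clock, Cry1, Cry2, Nr1d1 and Nr1d2, lay between -0.088 and 0.16. By edgeR's quasi-likelihood test 0 of the 10 members had an adjusted p under 0.05, as did 0% of all 15669 genes tested. Each of the 10 had an adjusted p of 0.9998. At an unadjusted p under 0.05 there was 1 member, Per3, against 2.36% of all genes tested (370 genes), or 1.34% when only lower genes are counted, and the 2 groups overlapped in CPM in every one of the 10 members, while 1.53% of all genes had groups that did not. DESeq2 called 0 members, against 0.0383% of all genes (6 genes), and limma-voom with sample weights called 0 members. At an unadjusted p under 0.05 these 2 methods had 3 and 2 members, against 366 and 371 of all 15669 genes tested. The median log2 fold change, HSC-PCK1-KO minus control, was -0.0087 over the members and -0.0055 over all genes tested.

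Per3, whose protein is the least needed of the PER proteins for rhythm in mice, had 11.9, 8.99, 8.02 and 10.5 CPM in HSC-PCK1-KO livers, against 15.7, 11.8, 13.95 and 14.2 CPM in control livers. Of the HSC-PCK1-KO values, 3 lay under the lowest control value, and the highest of them, in replicate 1, just exceeded the lowest control value, in replicate 2. The HSC-PCK1-KO livers averaged 9.84 ± 1.69 CPM, and the control livers 13.9 ± 1.61 CPM (SD, n = 4 each). This gave a log2 fold change of -0.50 (SE 0.13; 95% interval -0.79 to -0.21), and edgeR's unadjusted p was 0.00342. It kept its sign in all 15 alternative settings, from -0.60 to -0.41, with adjusted p-values of 0.469 or more. Per3 is the gene with the pair of matches to TTANGTAA in its promoter window, and whether these bear on its level was not tested.

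Per2, a repressor that also responds to feeding and glucocorticoids, had 18.6, 9.96, 20.1 and 13.7 CPM in HSC-PCK1-KO livers, against 22.3, 26.4, 18.2 and 20.0 CPM in control livers. HSC-PCK1-KO replicates 2 and 4 were under every control value, while replicates 1 and 3 lay within the control range. Per2 had a log2 fold change of -0.48 (SE 0.21) and a 95% interval of -0.97 to 0.0055. Leaving out HSC-PCK1-KO replicate 2 brought it to -0.32.

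Per1, the most quickly induced Per gene, had 4.80, 9.35, 17.0 and 10.1 CPM in HSC-PCK1-KO livers, against 10.9, 22.4, 15.6 and 18.7 CPM in control livers. HSC-PCK1-KO replicate 1 was the lowest of the 8 libraries, and HSC-PCK1-KO replicate 3 sat among the controls. The log2 fold change of Per1 was -0.71 (SE 0.37), the farthest from 0 of the loop, with a wide 95% interval from -1.58 to 0.15. Leaving out HSC-PCK1-KO replicate 1 gave -0.48, and leaving out HSC-PCK1-KO replicate 3 gave -1.06. For each of the 3 Per genes, all 4 HSC-PCK1-KO libraries lay under the control median, as in 9.8% of all genes tested. For Clock and Npas2 all 4 lay above it, as in 8.35% of all genes tested.

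Among the activators, Npas2, which can stand in for Clock as the partner of Arntl, had 1.43, 2.80, 2.37 and 2.01 CPM in HSC-PCK1-KO livers, against 2.27, 0.967, 1.65 and 1.15 CPM in control livers. HSC-PCK1-KO replicates 2 and 3 were above every control value, and control replicate 1 was above HSC-PCK1-KO replicates 1 and 4. Npas2 had a log2 fold change of 0.51 (SE 0.29; 95% interval -0.14 to 1.16), or 0.78 if control replicate 1 was left out. Clock, which encodes the histone-modifying partner of Arntl, had 41.6, 44.6, 41.1 and 44.2 CPM in HSC-PCK1-KO livers, against 39.3, 42.8, 38.8 and 35.1 CPM in control livers. Clock was the steadiest member, at a log2 fold change of 0.14 (SE 0.073; 95% interval -0.024 to 0.30).

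Arntl, the activator without which the loop stops in mice, had 8.668, 12.49, 9.495 and 9.735 CPM in HSC-PCK1-KO livers, against 10.86, 12.55, 5.072 and 7.601 CPM in control livers. The HSC-PCK1-KO values lay inside the control range, whose ends were control replicates 2 and 3. The log2 fold change of Arntl was 0.16 (SE 0.26), with an interval from -0.42 to 0.75, and it turned to -0.027 without control replicate 3.

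Of the CRY repressors, Cry1 had 7.327, 8.608, 10.95 and 8.089 CPM in HSC-PCK1-KO livers, against 9.03, 10.9, 6.28 and 5.95 CPM in control livers. Cry2 had 24.9, 27.2, 26.3 and 35.7 CPM in HSC-PCK1-KO livers, against 28.8, 36.3, 26.5 and 29.9 CPM in control livers. In both genes the groups overlapped over most of their range. The log2 fold change of Cry1 was 0.12 (SE 0.20), and -0.0031 without HSC-PCK1-KO replicate 3. That of Cry2 was -0.088 (SE 0.13), and 0.0085 without control replicate 2.

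Nr1d1, which encodes REV-ERB alpha, had 111.4, 151.2, 94.6 and 132.2 CPM in HSC-PCK1-KO livers, against 117.6, 133.4, 120.4 and 135.3 CPM in control livers. Nr1d2, which encodes REV-ERB beta, had 71.2, 70.9, 60.3 and 82.1 CPM in HSC-PCK1-KO livers, against 71.0, 64.6, 71.8 and 70.7 CPM in control livers. For both genes the HSC-PCK1-KO livers spread past the controls at either end. The log2 fold change of Nr1d1 was -0.050 (SE 0.13), and 0.054 without HSC-PCK1-KO replicate 3. That of Nr1d2 was 0.033 (SE 0.092), and it turned negative, to no lower than -0.043, in 3 of 15 alternative settings. In GENCODE M21, Nr1d1 shares 263 exonic bases with Thra, Cry2 shares 295 with D930015M05Rik and Arntl shares 33 with Gm45355, all on opposite strands, and the sources used here do not give the strand setting of the authors' counting. Thra averaged 12.3 ± 0.23 CPM over the HSC-PCK1-KO livers, against 11.9 ± 0.92 CPM over the control livers (SD, n = 4 each).

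**Figure D1:**
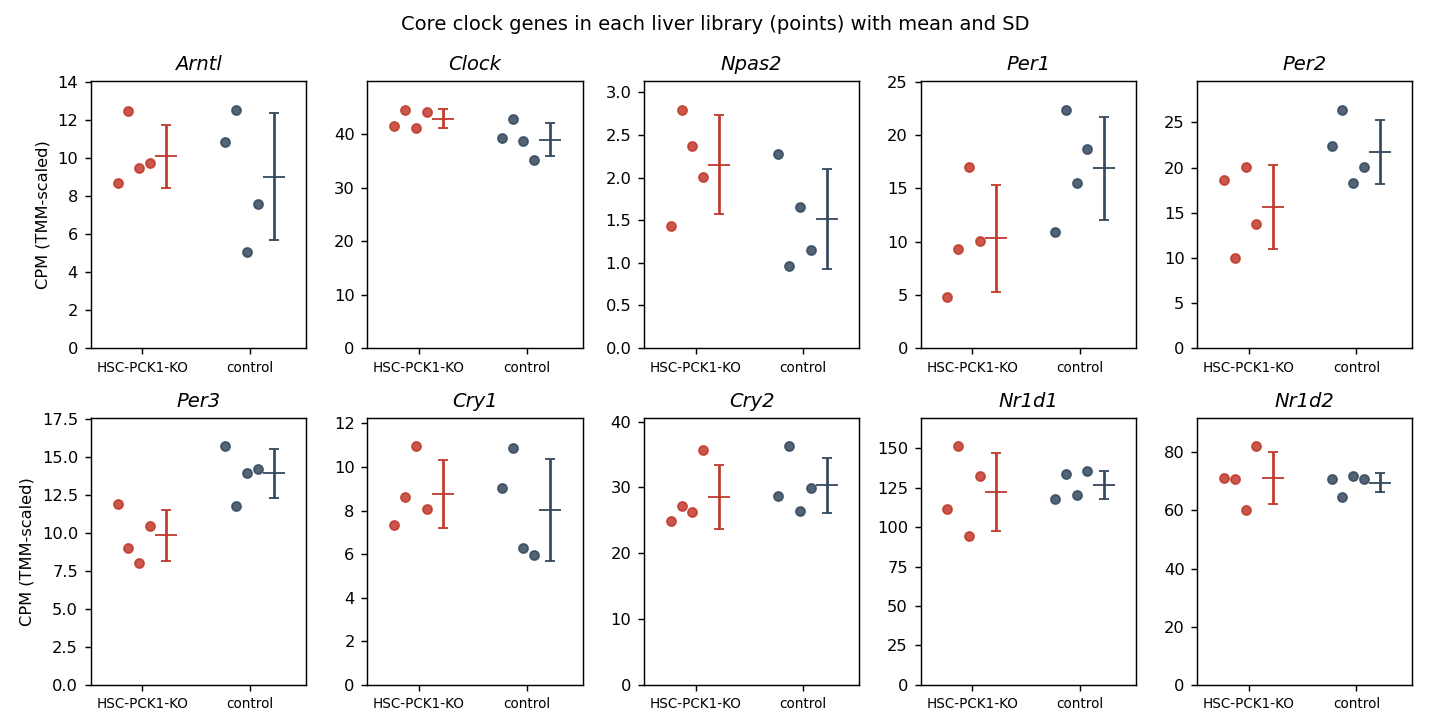
CPM (TMM-scaled, linear axis from 0) of the 10 core clock genes in each library, with HSC-PCK1-KO in red and control in dark blue, and the mean and SD of 4 libraries beside the points. The Per3 points lie between 8.02 and 11.9 CPM for HSC-PCK1-KO, and for control between 11.8 and 15.7 CPM, while those of Nr1d1 and Nr1d2 share their range.

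The 95% intervals bound what these libraries could have missed. For 8 of the 10 members the interval excluded a 2-fold change in either direction, the exceptions being Npas2 upward and Per1 downward. For 5 members, Clock, Cry1, Cry2, Nr1d1 and Nr1d2, it excluded a 1.5-fold change in either direction, for Cry1 only just, with an upper bound of 1.498-fold. The share of all genes tested with such intervals was not counted. Their median SE was 0.13 (log2), so these counts are not read as particular to the loop.

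Spread between mice of the same genotype differed widely within the loop. The SD of log2 CPM after removal of the group means was 0.61 for Per1, 0.47 for Npas2, 0.44 for Arntl, 0.36 for Per2 and 0.34 for Cry1. Those values lay at percentiles 96.5, 93.4, 92.2, 88.3 and 86.8 of the 12563 genes with a mean of at least 1 CPM. Nr1d1, Per3 and Cry2 had SDs of 0.22, 0.21 and 0.21, at percentiles 70.5, 68.7 and 68.6. Nr1d2, at 0.14, and Clock, at 0.093, lay at percentiles 41.7 and 17.0, so the measured log2 CPM of Clock varied less than that of most of these genes. These SDs hold counting error as well as differences between mice, and the percentiles were not adjusted for read depth. The spread was not the same in both groups by description. Nr1d1 had an SD of 0.29 in HSC-PCK1-KO and 0.10 in control livers, and Arntl one of 0.22 in HSC-PCK1-KO and 0.58 in control livers (log2 CPM, n = 4 each).

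The loop was also read as 2 arms in each library, as a description without a test. The mean log2 CPM of Arntl, Clock, Npas2 and Cry1 was 2.99, 3.44, 3.34 and 3.21 in HSC-PCK1-KO livers, against 3.28, 3.13, 2.76 and 2.73 in control livers, and the groups overlapped. The mean log2 CPM of Per1, Per2, Per3, Nr1d1 and Nr1d2 was 4.61, 4.62, 4.78 and 4.78 in HSC-PCK1-KO livers, against 4.99, 5.17, 5.01 and 5.12 in control livers, with every HSC-PCK1-KO library under every control library. None of these 5 genes separated the groups alone. After the group means were removed, Per1 and Per3 had an r of -0.90, so their deviations partly cancel in a mean. That r was the farthest from 0 of all 45 pairs of members, and without removal of the group means it was 0.063. How often a mean of 5 genes would separate the groups was not examined. The difference between the arms averaged -1.46 ± 0.20 in HSC-PCK1-KO and -2.10 ± 0.30 in control livers (SD, n = 4 each), a shift of 0.64 toward the Arntl arm. By library it was -1.62, -1.19, -1.45 and -1.58 in HSC-PCK1-KO livers, against -1.70, -2.04, -2.25 and -2.40 in control livers, so HSC-PCK1-KO replicate 1 and control replicate 1 stood nearly side by side. In the arm of 5 genes, the 3 Per genes had log2 fold changes of -0.71 to -0.48, while Nr1d1 and Nr1d2 were at -0.050 and 0.033. In the arm of 4 genes, Npas2, the member with the fewest reads, was at 0.51, while Arntl, Clock and Cry1 were at 0.16, 0.14 and 0.12. Cry2 was placed in neither arm. The direction of these arms was already visible in the single members, and their genes were grouped with results of these data known.

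**Figure D2:**
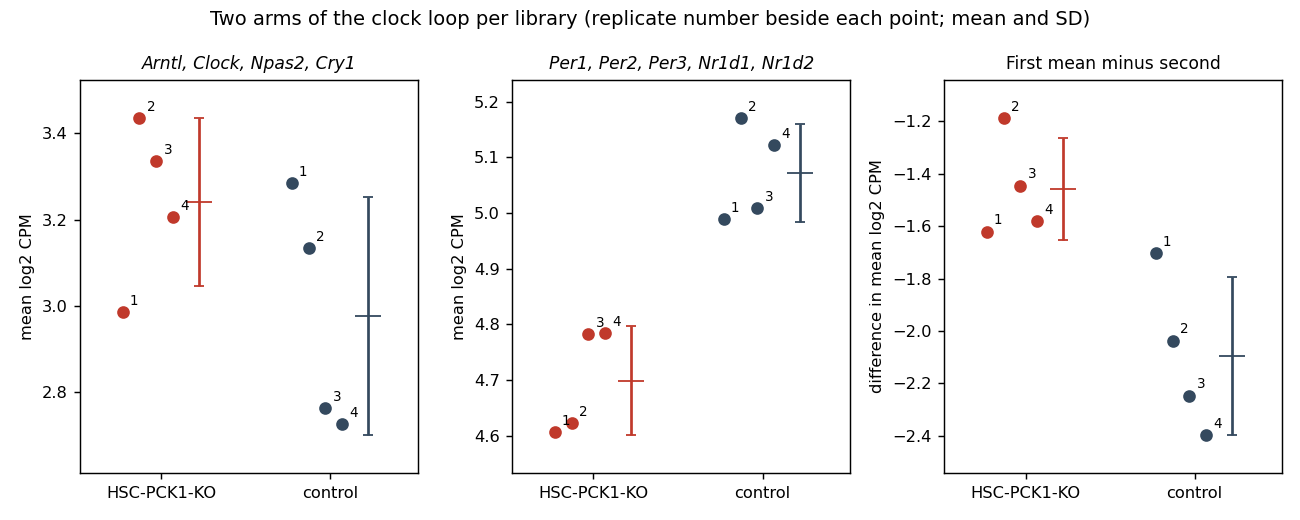
Mean log2 CPM of the Arntl arm (left), of the Per and Nr1d arm (middle) and their difference (right) in each library, with HSC-PCK1-KO in red, control in dark blue, replicate numbers beside the points, and the mean and SD of 4 libraries. The difference runs from -1.62 to -1.19 in HSC-PCK1-KO and from -2.40 to -1.70 in control livers.

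Across the 8 libraries the members were compared in all 45 pairs, and no pair passed after adjustment. Pearson's r of log2 CPM was positive in 27 pairs and negative in 18, and 1 pair had an unadjusted exact permutation p under 0.05. That pair was Arntl and Cry1, with Pearson's r of 0.749 (exact two-sided permutation p = 0.0253, adjusted p = 0.723 over 45 pairs) and Spearman's rho of 0.714 (exact permutation p = 0.0576, adjusted p = 0.77). Its r was 0.607 without the 2 libraries farthest from the median of Arntl, and 0.731 after the group means were removed. Within groups its r was 0.875 in control and 0.152 in HSC-PCK1-KO livers (n = 4 each). Both genes were high in control replicate 2 and low in control replicates 3 and 4. Arntl and Clock had an r of 0.599 (exact permutation p = 0.119, adjusted p = 0.723) and a rho of 0.714 (exact permutation p = 0.0576, adjusted p = 0.77). The r of Arntl and Clock was 0.694 without the 2 farthest libraries and 0.566 after the group means were removed.

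Arntl and Nr1d1, the activator and its direct repressor, had an r of 0.258 (exact permutation p = 0.525, adjusted p = 0.852) and a rho of 0.310 (exact permutation p = 0.462, adjusted p = 0.77), with an r of 0.286 without the 2 farthest libraries. Arntl and Nr1d2 had an r of -0.175 (exact permutation p = 0.663, adjusted p = 0.861) and a rho of -0.31 (exact permutation p = 0.462, adjusted p = 0.77), with an r of 0.048 without the 2 farthest libraries. The estimates of the 2 pairs thus differed in sign, and neither passed. Per2 and Per3, both lower by estimate in HSC-PCK1-KO livers, had an r of 0.476 (exact permutation p = 0.233, adjusted p = 0.723) and a rho of 0.310 (exact permutation p = 0.462, adjusted p = 0.77). That r was 0.026 without the 2 libraries farthest from the median of Per2 and -0.082 after the group means were removed.

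**Figure D3:**
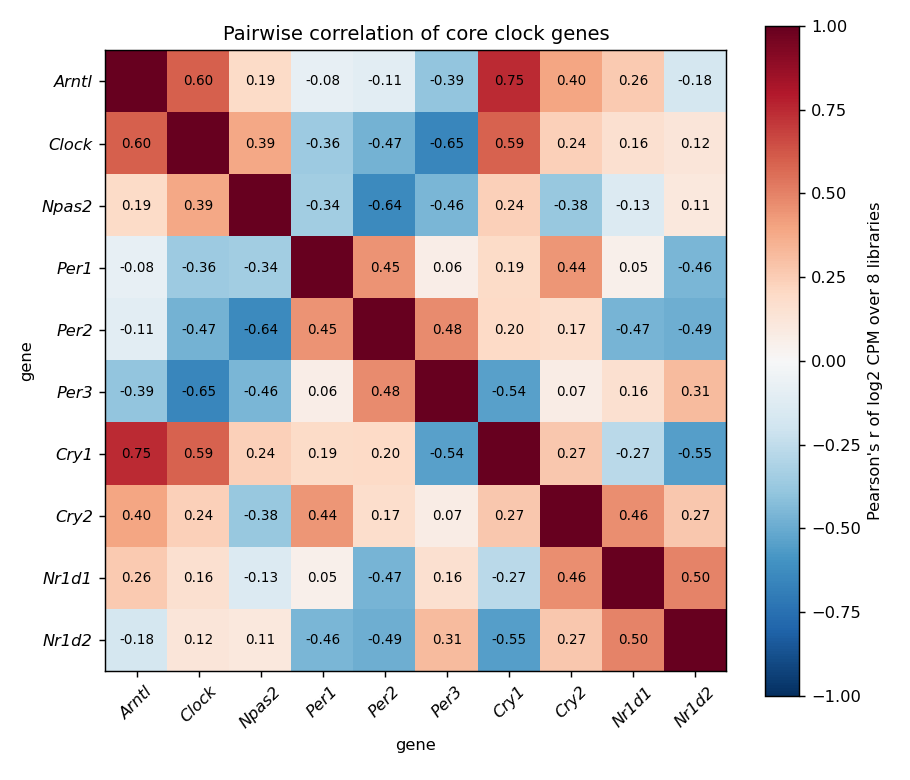
Pearson's r of log2 CPM over 8 libraries for every pair of the 10 core clock genes (blue negative, red positive, the value written in each cell). Arntl and Cry1 have the highest value at 0.75, and Clock and Per3 the lowest at -0.65. After the group means were removed, the r of Clock and Per3 was -0.27.

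Among 11568 other named genes with a mean of at least 1 CPM, the 5 whose log2 CPM followed Arntl most closely over the 8 libraries were Smarcc1 (r = 0.953), Trim33 (0.936), Cask (0.936), Nfil3 (0.931) and Rffl (0.929). Nfil3 encodes a D-box repressor whose RNA is known to run with that of Arntl in liver. Nfil3 had 23.7, 26.7, 22.0 and 19.0 CPM in HSC-PCK1-KO livers, against 25.33, 27.88, 14.01 and 18.19 CPM in control livers, lowest in control replicate 3, as was Arntl. Smarcc1, a subunit of a chromatin remodelling complex, stayed within 22.1 to 25.1 CPM, so its close match to Arntl rests on small differences. The 5 genes most opposed to Arntl were Rgs12 (r = -0.933), Slc25a28 (-0.933), Map3k20 (-0.932), Thnsl1 (-0.916) and Cdan1 (-0.907). In all, 13 genes had an r of at least 0.9 in size, and with 8 libraries and this many genes the ranking is a description only.

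Around the loop, 12 accessory transcription factors and repressors were listed, and 0 of the 11 tested passed in edgeR's quasi-likelihood test in either direction. Of these, 7 had a negative and 4 a positive log2 fold change, with a median of -0.16. Ciart, which encodes a repressor that acts on the Arntl and Clock pair, had 1.23, 1.03, 1.68 and 1.69 CPM in HSC-PCK1-KO livers, against 3.47, 3.33, 2.01 and 2.37 CPM in control livers. Ciart alone of the 11 had groups that did not overlap, while 1.53% of all genes tested had such groups, or 0.811% when only lower genes are counted. Its log2 fold change was -0.99 (SE 0.24), with an adjusted p of 0.9998 in edgeR's test. Tef and Dbp, activators at D-boxes, had log2 fold changes of -0.22 (SE 0.092) and -0.40 (SE 0.19). Dbp had 51.4, 35.6, 33.8 and 48.0 CPM in HSC-PCK1-KO livers, against 44.7, 47.6, 73.7 and 56.9 CPM in control livers, with 2 of its HSC-PCK1-KO values under every control value. Bhlhe40, an E-box repressor, had a log2 fold change of -0.49 (SE 0.24). Rora, which encodes a RORE activator, stood at 50.03 ± 5.85 CPM in HSC-PCK1-KO livers, against 48.8 ± 3.82 CPM in control livers (SD, n = 4 each).

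**Figure D4:**
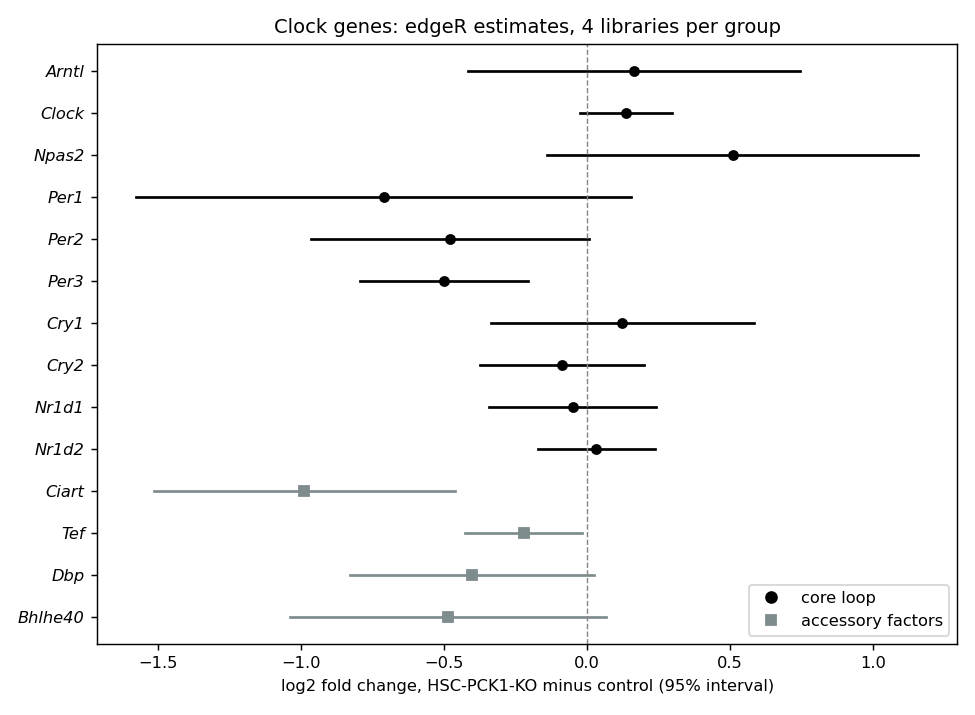
Log2 fold change, HSC-PCK1-KO minus control, with its 95% interval from edgeR for the 10 core genes (black circles) and the 4 accessory factors with the smallest p (grey squares). The 3 Per genes and Ciart lie left of 0, at -0.71 to -0.48 and -0.99, while Cry2, Nr1d1 and Nr1d2 lie within 0.1 of 0, and no gene shown had an adjusted p under 0.05.

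Of 20 protein modifiers and corepressors of the clock, 0 passed, 11 being positive and 9 negative, with a median log2 fold change of 0.036. Hdac3, the deacetylase that REV-ERB proteins bring to DNA, had 52.8, 46.7, 49.4 and 51.0 CPM in HSC-PCK1-KO livers, against 44.2, 45.6, 44.6 and 47.7 CPM in control livers. Its log2 fold change was 0.13 (SE 0.063). Usp2, a deubiquitinase, was at -0.36 (SE 0.21). Of 11 clock output genes tested, 0 passed, and 10 were negative, with a median of -0.16, where 51.8% of all genes tested were negative. Those with the smallest p were Por, at -0.33 (SE 0.18), Cyp7a1, the rate-limiting enzyme of bile acid synthesis, at -0.70 (SE 0.43), and Ppara at -0.15 (SE 0.12).

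The signals known to act on the Per genes were listed too, and 0 of 34 genes tested in 4 lists passed. Glucocorticoid targets were negative in 6 of 9, with Sgk1, Fkbp5 and Lcn2 at -0.19, -0.11 and -0.46. Cyclic AMP and immediate early genes were positive in 5 of 9, with Sik1, Egr1 and Nr4a1 at -0.62, 0.36 and 0.81. Heat and cold genes were positive in 4 of 8, with Rbm3, Hspa1a and Hspa8 at -0.16, 0.32 and -0.14. Insulin and feeding genes were positive in 4 of 8, with G6pc and Srebf1 at -0.54 and -0.16. The directions of Lcn2, Egr1, Nr4a1 and Hspa1a turned in at least 1 alternative setting. Whether any of these signals had a part in the Per values was not tested.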

How the data were processed

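The authors deposited raw counts per gene for 8 liver libraries, whole numbers for 56953 gene identifiers, with no normalization. Per the labels' protocols, libraries were made from poly(A) RNA with dUTP strand marking and read in pairs on DNBSEQ. Per the submitters' processing notes the build was GRCm39 and R 4.3.2 was used. The sources used here do not give the aligner, counter, annotation release or strand setting. Symbols and exon lengths came by identifier from GENCODE M21 (GRCm38), which named 52029 identifiers, and promoter windows from RefSeq (GRCm38.p6).

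The counts were tested in R 4.3.3 with edgeR 4.0.16 (filterByExpr, which kept 15669 of 28811 genes with a count, TMM factors, robust quasi-likelihood F-test, genotype as the only term, Benjamini-Hochberg adjustment over all genes tested, threshold 0.05). CPM are scaled by library total and TMM factor, log2 CPM used a prior count of 2, and intervals are 95%. Depth was 44695439 to 49477255 counts per library, and fold changes had a median SE of 0.13 (log2). Correlations used exact permutation over all 40320 orders of the 8 libraries. Alternatives were DESeq2 1.42.0, limma-voom (limma 3.58.1), factors by RLE or upper quartile, all genes with a count or only those at 1 CPM in 4 libraries, the replicate number as a block, an adjusted p of 0.1, a prior count of 0.5, and each library omitted singly. The code was checked on simulated data.

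All members are named. Of each accessory and modifier list the 4 genes with the smallest p are named, and of each other list the 3, except some genes that are not reported here, with the 5 genes most and least like Arntl, and Pck1. Thra, Rora, Upk3b and the values set out under other observations were chosen after values were seen. The members and lists were chosen with earlier results of these data known. No label states how mice were paired, and same-numbered libraries of the 2 groups did not deviate together.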

Additional observations from a re-analysis of the deposited data

Results flagged for a closer look

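A library lay far from the other 3 of its group in 3 of 70 groups of 4 values examined, where chance gives about 3.5, since about 1 group in 20 is marked by chance. Nr1d2 was marked by its lowest control value, 64.6 CPM in control replicate 2, where the other 3 control libraries had 70.7 to 71.8 CPM. Ppara was marked by its lowest control value, 84.0 CPM in control replicate 3. Egr1, an immediate early gene, was marked by its highest HSC-PCK1-KO value, 23.1 CPM in replicate 4.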

How the results depend on the processing

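None of the 10 members passed an adjusted p of 0.05 in any of 15 alternative settings. None of the genes named from the accessory, modifier, output and signal lists did in any setting that tested them. Upk3b, a cell type marker, passed with DESeq2. Over all genes the count of 0 was 6 with DESeq2 and 0 to 1 when a library was left out, the 1 gene, without control replicate 1, being the predicted gene Gm15920, named after its value was seen. The replicate number as a block gave 0 genes over all, and same-numbered libraries correlated at -0.33 to 0.058 in their deviations from the group means, so the numbers were not taken as pairs. Of 150 member values, 143 kept their sign. When a library was left out, log2 fold changes ran from -0.027 to 0.36 for Arntl, -0.0031 to 0.30 for Cry1, -0.21 to 0.0085 for Cry2, -0.17 to 0.054 for Nr1d1 and -0.043 to 0.10 for Nr1d2, which was -0.00065 in limma-voom. They ran from -0.82 to 0.83 for Lcn2, -0.054 to 0.61 for Egr1, -0.61 to 1.18 for Nr4a1 and -0.047 to 0.49 for Hspa1a. With the replicate block Lcn2 was at 0.35 and Nr4a1 at -0.026, and in limma-voom they were at 0.26 and -0.13. The difference between the arms ran from 0.54 to 0.77 when a library was left out. The correlation of Cry1 and Cry2 ran from -0.059 to 0.52, and that of Nr1d1 and Nr1d2 from -0.022 to 0.64. The causes were not tested. Among the members, depth limits Npas2 most, at 41 to 139 reads. Hspa1a was lower still, at 0.402 to 1.10 CPM in HSC-PCK1-KO and 0.479 to 0.613 CPM in control livers.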

Other observations

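HSC-PCK1-KO replicate 1, the library with the lowest Per1 of all 8 at 4.80 CPM, was the lowest of all 8 in 15.1% of all genes tested and in 14 of the 34 genes of the glucocorticoid, cyclic AMP, heat and cold, and feeding lists. It was not the lowest in the other 20 of these, among them Egr1 (9.38 CPM, against 6.60 in control replicate 2) and Fos (1.47 CPM, against 0.943 in control replicate 2). Among the members it was the lowest for Per1 and Cry2. Genes in which it was the lowest, chosen after their values were seen, included Sik1 at 4.89 CPM (11.6 to 24.2 in the other HSC-PCK1-KO and 15.8 to 28.2 in the control libraries), Nr4a1 at 2.12 CPM (5.47 to 51.0 and 6.91 to 14.4), Sgk1 at 15.6 CPM (18.4 to 28.1 and 19.3 to 28.8), Bhlhe40 at 59.9 CPM (71.7 to 117.5 and 107.0 to 167.3), G6pc at 301.5 CPM (463.7 to 581.6 and 480.6 to 1010) and Pck1 at 339 CPM (593 to 948 and 551 to 2012). Per2 and Per3 did not share this, as HSC-PCK1-KO replicate 1 had 18.6 CPM of Per2 and 11.9 CPM of Per3, both within the control range. Control replicate 2 was the highest of all 8 libraries in Per1 (22.4 CPM), Per2 (26.4 CPM), Cry2 (36.3 CPM), Arntl (12.6 CPM), Pck1 (2012 CPM) and G6pc (1010 CPM), and the lowest in Npas2 (0.967 CPM). Arntl (12.49 CPM in HSC-PCK1-KO replicate 2) and Cry2 (35.65 CPM in HSC-PCK1-KO replicate 4) were near ties. How often control replicate 2 was the highest over all genes tested was not counted. TMM factors were 0.9416 for HSC-PCK1-KO replicate 1, 0.9491 for control replicate 2 and 0.9964 to 1.059 for the other libraries.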
